A study of Homo sapiens with 6 samples.

Results

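The genes of ubiquitin-conjugating enzymes (E2 enzymes, symbols starting with UBE2) and of ubiquitin-specific proteases (symbols starting with USP and a digit) were examined for association with CELF1 in melanoma cells. The rule gave 35 UBE2 genes and 52 USP genes, 87 of 19833 protein-coding genes in the GRCh37 annotation, with the USP17L copies left out. It used symbols only and no measured value. CELF1 was pulled down from cell lysates with an antibody against CUGBP1 (the other name of CELF1), and the RNA that came with it was sequenced (RIP-seq). Immunoprecipitated (IP) RNA was taken from SK-Mel-103 (replicate 1) and from UACC-62 (replicates 1 and 3), human cutaneous melanoma lines grown without further treatment, and was set against the input RNA with the same replicate number. SK-Mel-103 has 1 IP sample, and the labels do not say whether the 2 UACC-62 replicates come from separate cultures. All values are therefore descriptions, no test was run, and the only replicate spread is that of UACC-62.

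Ubiquitin is activated by an E1 enzyme, passed to an E2 and attached to a protein with the help of an E3 ligase. The E2 largely sets which kind of chain is built, and some E2s carry a ubiquitin-like protein such as NEDD8 or ISG15 instead. USPs form the largest class of deubiquitinating enzymes and cut ubiquitin off again. Most E2s are small proteins made of little more than the catalytic fold, whereas USPs are long and carry further domains. CELF1 binds GU-rich RNA, mostly in 3′ UTRs, and is known for promoting mRNA decay and for acting in splicing and translation. USP6NL fell under the rule by its symbol but is a GTPase-activating protein for Rab proteins, and UBE2V1, UBE2V2 and USP39 are held to lack a working catalytic site.

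The values are reads in bins of 20 nt along the genome. A bin is listed for a sample only if it passed the peak caller, so that IP over input is conditional on that selection, and input reads outside listed bins are unknown. Sets of 3 values are given in the order SK-Mel-103, UACC-62 replicate 1, UACC-62 replicate 3. In that order, the depth in listed bins was 10958459, 11333805 and 14436573 for IP and 8453517, 10161917 and 8900292 for input. A peak is a bin with more than 30 IP reads and p under 0.05, and a common peak is the same bin passing in all 3 samples. All listed bins already had p under 0.05, so that among them only the read minimum selected peaks. The lists do not say whether p was corrected for multiple tests. Log2 IP over input compares the IP and the input reads of all listed exon bins of a gene, each divided by the total of its column, after adding 1 read. It is given for measured genes, those with at least 50 IP and input reads together in each sample. Of the markers checked, SOX10 was listed in all 3 samples, TYR, DCT and S100B only and MITF and MLANA mainly in UACC-62, AXL and NGFR mainly in SK-Mel-103 and PMEL and TYRP1 in none, while the epithelial and T cell markers EPCAM, KRT5 and CD3E had no listed bin and the leukocyte gene PTPRC had 0, 25 and 8 IP reads.

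Strong bins of members with common peaks are shown first, because they were not all GU-rich. Each line gives the common peak with most IP reads of that gene in its lowest sample, or for UBE2N the peak with the highest log2 IP over input in its lowest sample, 5′ to 3′ on the transcript strand, with TGT, the core of the GU-rich elements (written as DNA), in capitals.
UBE2C, chr20:44445501-44445520, plus strand: agcTGTggtattttTGTttt
UBE2E3, chr2:181928101-181928120, plus strand: agagagcacctgaTGTatca
UBE2N, chr12:93802561-93802580, minus strand: actatctagctTGTGTGTca
UBE2E1, chr3:23932741-23932760, plus strand: TGTggactacttaagtctgc
UBE2M, chr19:59067081-59067100, minus strand: attaaaggggaaTGTtactg
USP22, chr17:20905681-20905700, minus strand: tcttatccctctcccgctcc
USP34, chr2:61414741-61414760, minus strand: gcTGTggcctggcagtatat
USP37, chr2:219318921-219318940, minus strand: tggaataTGTtacagtccca
The UBE2C bin held 936, 1065 and 1239 IP reads against 125, 99 and 88 input reads. The UBE2M bin held 55, 73 and 61 IP reads against 225, 308 and 183 input reads. Both counted as common peaks, although the log2 ratio was 2.52, 3.26 and 3.10 in the former and -2.39, -2.22 and -2.27 in the latter. A common peak thus did not require more IP than input. Of the 82 common bins in UBE2 genes, 63 were above 0 in all 3 samples and 37 above 1. Of the 93 in USP genes, 78 were above 0 and 27 above 1. Common bins are selected by their IP reads, and these shares were not computed over all genes.

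Common peaks lay in 10 of 35 UBE2 genes and in 4 of 52 USP genes, against 8.69% of all protein-coding genes. The UBE2 genes were UBE2E3 with 25 common bins, UBE2C with 18, UBE2N with 17, UBE2Z with 11, UBE2E1 with 5, UBE2W with 2 and UBE2A, UBE2G1, UBE2K and UBE2M with 1 each. The USP genes were USP22 with 74, USP34 with 14, USP37 with 4 and USP32 with 1. All 14 genes were measured, so that the counts were 10 of 31 and 4 of 35 among measured members, against 23.1% of measured genes. Of the remaining members, 3 UBE2 genes (UBE2U, UBE2QL1 and UBE2L5) and 4 USP genes (USP26, USP29, USP43 and USP50) had no listed exon bin in any sample. A further 1 UBE2 gene (UBE2D4) and 13 USP genes had bins but too few reads.

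The 2 families differed in how much input RNA was listed per kb of exon. In total, exons held 29487, 28670 and 28199 input reads in UBE2 genes and 32781, 35773 and 33517 in USP genes. The median exon length was 3482 nt in UBE2 and 5555 nt in USP genes. The input level was expressed as RPKM, the reads per kb of exon scaled to the total of listed input reads. Its median was 26.04, 21.7 and 24.98 in measured UBE2 genes, against 9.07, 7.11 and 7.29 in measured USP genes and 11.1, 9.84 and 10.9 in all measured genes. When all measured genes were divided by this level into 4 classes of 1868 genes, 14 UBE2 genes and 5 USP genes fell in the highest class, and 8 and 2 of them had a common peak, against 58.7% of all genes there. In the next class it was 2 of 11 UBE2 and 0 of 10 USP genes against 22.1%. In the class below that it was 0 of 4 and 2 of 10 against 9.15%, namely USP32 and USP37, and in the lowest 0 of 2 and 0 of 10 against 2.36%. Common peaks therefore went with the listed input level in all genes. This level counts input reads only in bins that passed the peak caller, so it is not independent of the peaks. Whether the level accounts for the count of either family was not tested.

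**Figure D1:**
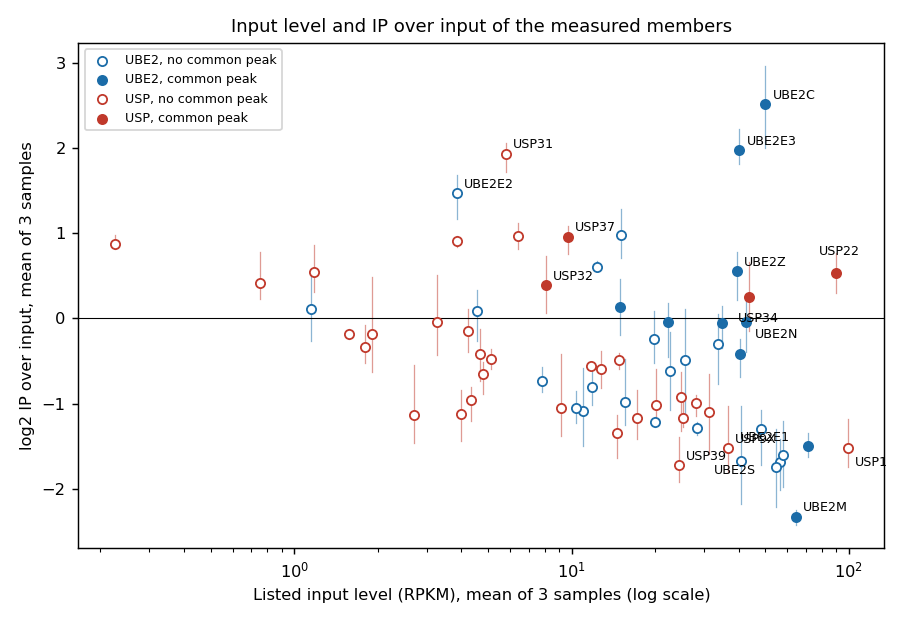
Listed input level in RPKM (log scale) against log2 IP over input for the 31 UBE2 (blue) and 35 USP (red) genes with at least 50 reads in each sample. Points are means of the 3 IP samples, bars run from the lowest to the highest sample, and filled points have a common peak; UBE2C and UBE2E3 stand apart at high input and high IP over input, whereas UBE2E1 and UBE2M have a common peak at high input and low IP over input.

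Relative to input, the order of the families depended on the sample and on the setting. The median log2 IP over input was -0.24, -0.86 and -0.33 in UBE2 genes and -0.46, -0.59 and -0.52 in USP genes. Over all measured genes it was -0.28, -0.71 and -0.49. The difference between the family medians was 0.22, -0.27 and 0.19, and the UACC-62 mean was -0.04 ± 0.33 (SD, n = 2). The sign thus changed between replicates of the same line, but not under every setting: among members with at least 200 reads the difference was above 0 in all 3 samples (0.35, 0.073 and 0.38), and over bins with more than 30 IP reads it was below 0 in all 3 (-0.73, -1.65 and -0.75). The latter setting left only 10 UBE2 and 3 USP genes, and it chose bins by IP reads, the numerator of the ratio. Dividing by the reads in protein-coding exon bins in place of all listed bins raised every value by 0.18, 0.24 and 0.13, so that values near 0 can change sign with the scaling.

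Rules of size were then applied to single genes. A log2 IP over input above 1 in all 3 samples was found for 3 of 31 UBE2 genes (UBE2C, UBE2E3 and UBE2E2) and 1 of 35 USP genes (USP31), against 8.91% of all measured genes. A value below -1 in all 3 samples was found for 9 UBE2 genes (UBE2M, UBE2S, UBE2D3, UBE2L3, UBE2T, UBE2E1, UBE2J1, UBE2G2 and UBE2V1) and 4 USP genes (USP39, USP1, USP9X and USP16), against 17.9%. UBE2E2 was no longer above 1 in all 3 samples when bins without input reads were left out. With exon totals the same counts were 3 and 4 above against 11.1% of genes, and 6 and 1 below against 11.7%, as UBE2J1, UBE2L3, UBE2V1, USP1, USP16 and USP9X were no longer below -1 in all 3 samples.

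**Figure D2:**
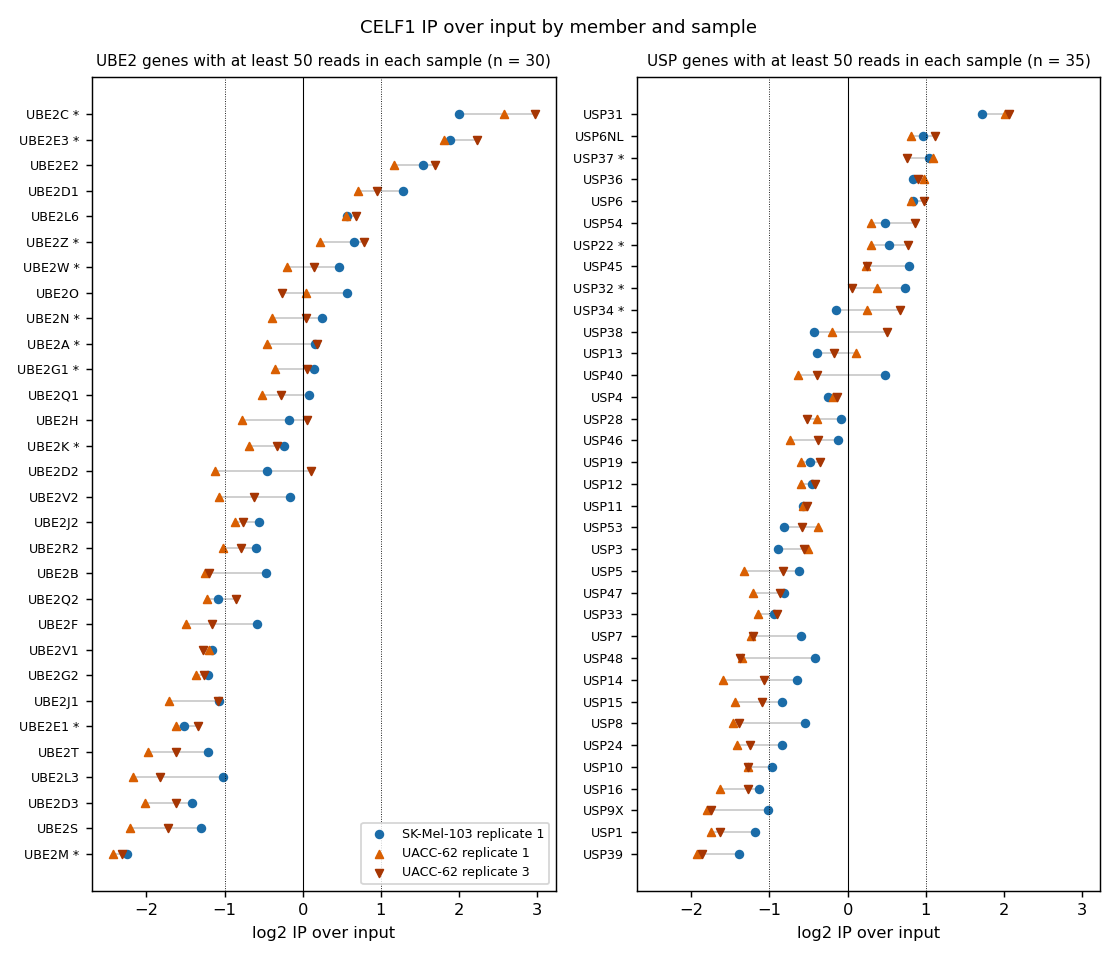
Log2 IP over input (x axis) of 30 UBE2 and 35 USP genes with at least 50 reads in each sample (1 further UBE2 gene is not shown), with 1 symbol per IP sample, a grey line from the lowest to the highest and an asterisk on genes with a common peak. UBE2C, UBE2E3, UBE2E2 and USP31 lie above 1 in all 3 samples, and UBE2M lies lowest.

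UBE2C, the E2 that starts ubiquitin chains for the anaphase-promoting complex (APC/C) in mitosis, had the highest values of all members. Its exons held 3339, 4164 and 6209 IP reads against 645, 625 and 489 input reads. This gave a log2 ratio of 2.0 for SK-Mel-103 and of 2.58 and 2.97 for UACC-62 (mean 2.77 ± 0.28, SD, n = 2), so that SK-Mel-103 lay below both UACC-62 replicates. Its 18 common bins were all above 0 in all 3 samples, and 13 were above 1. They ran from 313 nt before to 144 nt after the stop codon of the canonical transcript, and the strongest bin lay 104 nt after the stop, shown above. The other E2s of the APC/C did not share this level. UBE2S, which extends the chains, had 627, 429 and 510 IP reads against 1189, 1779 and 1037 input reads and values of -1.30, -2.21 and -1.72. UBE2D1, which can take the place of UBE2C at the APC/C and serves many other ligases, had values of 1.28, 0.71 and 0.95.

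The UBE2E genes are close paralogs with an extended N-terminus, and their values diverged. UBE2E3 held 5405, 3140 and 6148 IP reads against 1131, 803 and 809 input reads. Its log2 IP over input was 1.88, 1.81 and 2.23, and that of UBE2E2, at a much lower input (131, 89 and 97 reads), was 1.54, 1.17 and 1.69. UBE2E1 had 577, 545 and 991 IP reads against 1277, 1511 and 1552 input reads, and values of -1.52, -1.63 and -1.34. The 3 samples of UBE2E1 did not overlap with those of either paralog. The 25 common bins of UBE2E3 were above 0 in all 3 samples, whereas the 5 of UBE2E1 were below 0 in all 3. The strongest bin of UBE2E3 held 558, 309 and 534 IP reads against 46, 51 and 65 input reads, and that of UBE2E1 held 78, 57 and 102 against 97, 134 and 151.

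**Figure D3:**
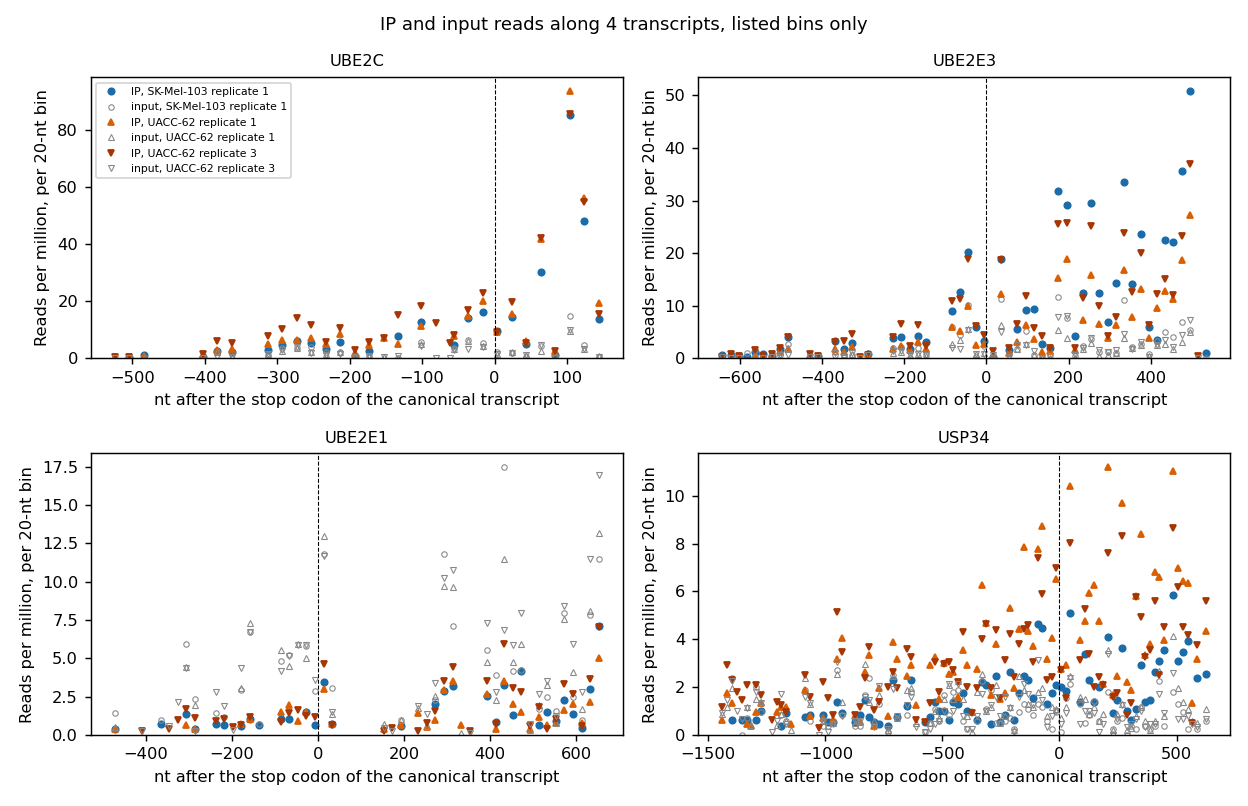
IP (coloured) and input (open grey) reads per 20-nt bin, scaled to the listed reads of the sample, against the distance from the stop codon of the canonical transcript (dashed line) for UBE2C, UBE2E3, UBE2E1 and USP34, listed bins only and within 700 nt (1500 nt for USP34) before the stop. IP exceeds input over the 3′ end of UBE2C and UBE2E3 in all 3 samples, lies below it over UBE2E1, and exceeds it over the 3′ UTR of USP34.

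The E2s that build lysine 63-linked chains or act in DNA damage tolerance lay around or below 0. UBE2N, which builds those chains with UBE2V1 or UBE2V2, had many reads (3915, 1880 and 3543 in IP and 2545, 2219 and 2123 in input) and values of 0.25, -0.40 and 0.04. Its 17 common bins were mixed, since 11 were above 0 in all 3 samples and 5 below. The 5 below 0 lay between 105 and 625 nt after the stop, and the bin at 105 nt held 78, 34 and 65 IP reads against 151, 128 and 96 input reads. The bin at 1245 nt, shown above, held 64, 34 and 46 IP reads against 7, 4 and 4 input reads. UBE2V2 had values of -0.16, -1.07 and -0.63. UBE2V1 had -1.16, -1.20 and -1.28, but 99.2% of its bins also lie in exons of a readthrough gene, so that its reads cannot be assigned to it alone. The RAD6 enzymes UBE2A and UBE2B had values of 0.15, -0.46 and 0.18 and of -0.47, -1.25 and -1.21.

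Of the E2s of ubiquitin-like proteins, UBE2M, which carries NEDD8, was the lowest member of either family. It had 238, 237 and 217 IP reads against 874, 1145 and 667 input reads and values of -2.25, -2.42 and -2.31 (UACC-62 mean -2.37 ± 0.08, SD, n = 2). UBE2F, the other NEDD8 enzyme, had -0.58, -1.50 and -1.16. UBE2L6, which carries ISG15, had 0.57, 0.55 and 0.68. The endoplasmic reticulum enzymes UBE2G2 (-1.21, -1.37 and -1.26) and UBE2J1 (-1.08, -1.71 and -1.09) were below -1 in all 3 samples, and UBE2G1 and UBE2J2 were not. Low values were also seen for the widely used enzymes UBE2D3 (-1.42, -2.02 and -1.62) and UBE2L3 (-1.03, -2.17 and -1.83), and for UBE2T of the Fanconi anaemia pathway (-1.21, -1.98 and -1.62). UBE2Z, which takes ubiquitin from the E1 enzyme UBA6, was above 0 in all 3 samples at 0.66, 0.22 and 0.78.

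Among the USPs, USP22, the deubiquitinase of the SAGA coactivator complex that acts on histones, had the most common bins. It held 6408, 8481 and 11436 IP reads against 3432, 6188 and 4134 input reads, and values of 0.53, 0.30 and 0.77. Of its 74 common bins 59 were above 0 in all 3 samples and 10 above 1, with at most 181 IP reads in a bin, so that its reads were spread along the 3′ UTR and not gathered in a few bins as in UBE2C. The other measured USPs of the histone list, USP3 (-0.89, -0.51 and -0.56) and USP16 (-1.13, -1.63 and -1.27), lay below 0. USP31 had the highest log2 IP over input of the USPs, with 1869, 3985 and 4467 IP reads against 438, 881 and 658 input reads and values of 1.72, 2.02 and 2.06. It had 0, 10 and 17 peaks in the 3 samples and hence no common peak. USP37, which acts on cyclin A, had values of 1.04, 1.09 and 0.76 and 4 common bins, all above 1 in all 3 samples. USP36, a nucleolar enzyme, had 0.84, 0.97 and 0.90, USP6NL 0.97, 0.81 and 1.12, and USP6 0.84, 0.81 and 0.97. The UACC-62 mean of USP6 was 0.89, and 0.25 when bins without input reads were left out. USP6 shares much of its sequence with USP32, and reads that match several loci were kept, so its value is uncertain, as is that of other members with near-identical copies.

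The USPs with the lowest values were USP39, which acts in splicing (-1.39, -1.92 and -1.86), USP1, which acts on FANCD2 and PCNA (-1.18, -1.75 and -1.64), and USP9X (-1.02, -1.80 and -1.74). USP1 had 36 peaks in SK-Mel-103 but 0 and 2 in UACC-62, with 3099, 789 and 1270 IP reads, while its input level was 166, 60.5 and 70.7 RPKM and its IP reads fell short of the input share in all 3 samples. None of the 6 USPs listed for DNA repair and p53 (USP1, USP7, USP10, USP28, USP47 and USP48) had a common peak, against 23.1% of measured genes, and all 6 were below 0 in all 3 samples, against 54.9%. USP28 was at -0.08 in SK-Mel-103, a sample that exon totals raised by 0.18, so its sign there depends on the scaling.

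The gene bodies differed between the families. The median coding length was 637 nt in UBE2 genes and 2939 nt in USP genes, at 3′ UTR lengths of 1963 and 2074 nt. Of the IP reads in exons, 88.7%, 86.6% and 85.6% lay in 3′ UTR bins in UBE2 genes and 55.1%, 60.1% and 53.2% in USP genes. The input shares were 79.8%, 77.1% and 78.1% in UBE2 genes and 37.8%, 38.1% and 36.0% in USP genes, so that in both families the 3′ UTR share was higher in IP than in input in all 3 samples. The same held over all protein-coding genes, with 73.2%, 78.8% and 76.7% of IP and 54.7%, 54.6% and 56.5% of input reads. The 95% Wilson intervals of these shares were at most 1.05 percentage points wide and cover counting error only. Where transcripts of a gene disagree, a bin was given to the 3′ UTR, which touched UBE2C and UBE2E3: 72 of 82 common bins of UBE2 genes were placed in 3′ UTRs, but 66 lay after the stop codon of the canonical transcript. In USP genes both counts were 88 of 93.

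Within the same gene, the 3′ UTR was set against the coding region in the 25 UBE2 and 26 USP genes with enough reads in both regions. The 3′ UTR value was higher in all 3 samples in 16 UBE2 and 19 USP genes, against 56.8% of genes with enough reads in both regions. It was lower in all 3 in 1 UBE2 gene (UBE2S) and 2 USP genes (USP16 and USP10), against 13%. The median difference was 0.80, 0.81 and 0.53 in UBE2 genes and 0.56, 0.57 and 0.53 in USP genes, against 0.41, 0.39 and 0.33 over 4534 genes. It exceeded 1 in all 3 samples in 4 UBE2 genes (UBE2L3, UBE2Z, UBE2D2 and UBE2G1) and 3 USP genes (USP22, USP34 and USP32), against 11.4% of genes. It was below -1 in all 3 in 0 members, against 0.0662%.

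USP34, a very large deubiquitinase linked to Wnt signalling, had one of the clearest splits among the USPs, together with USP32, in which the 3′ UTR value lay 1.09, 2.18 and 1.65 above that of the coding region. The 3′ UTR of USP34 held 757 IP against 187 input reads in SK-Mel-103 and its coding region 3688 against 3602. Relative to input, the log2 values were 1.64, 2.10 and 2.18 in the 3′ UTR and -0.34, -0.03 and 0.53 in the coding region, a difference of 1.98, 2.13 and 1.65 (UACC-62 mean 1.89 ± 0.34, SD, n = 2). Of its 14 common bins, 11 lay in the 3′ UTR. The whole-gene value of -0.14, 0.24 and 0.67 thus averaged over a long coding region. USP22 had differences of 1.59, 1.42 and 1.30, and UBE2L3 1.71, 1.58 and 1.25 although its whole-gene value was below -1. UBE2M, the lowest gene, had -0.45, 0.17 and 0.34, and was thus low in both regions.

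**Figure D4:**
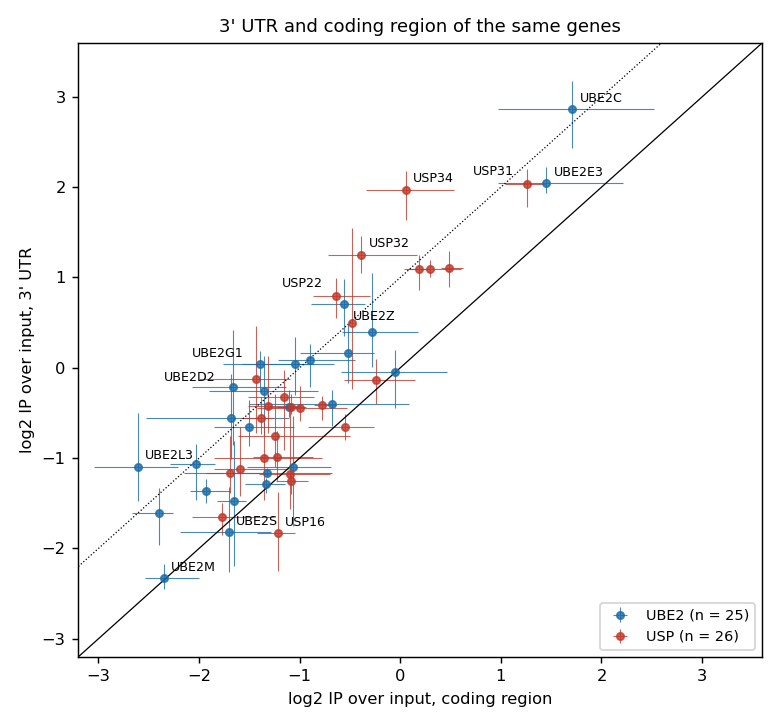
Log2 IP over input in the coding region (x axis) and in the 3′ UTR (y axis) of the 25 UBE2 (blue) and 26 USP (red) genes with enough reads in both; points are means of the 3 IP samples and bars run from the lowest to the highest sample. Most points lie above the solid line of equal values, and USP34 lies far above the dotted line that marks a difference of 1.

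In annotated 3′ UTRs, read along the transcript strand, GU-rich elements were taken as 11-nt stretches within 2 mismatches of TGTGTGTGTGT or TGTTTGTTTGT. An element was found in 30 of 35 UBE2 genes (85.7%) and 39 of 52 USP genes (75%), against 56.4% of the 3′ UTRs of 19306 genes, which were shorter, with a median of 1289 nt. With at most 1 mismatch the counts fell to 9 and 11 (25.7% and 21.2%), against 21.7% of all genes with a 3′ UTR. With none they fell to 2 (UBE2H and UBE2L6) and 6 (5.71% and 11.5%), against 7.81%. The elements shown next, in capitals with 7 nt on either side, were chosen for the contrast between element and reads.
UBE2N, chr12:93802854-93802864, minus strand, 1 mismatch: aaataaaTGTGTTTGTGTtgtctga
UBE2E3, chr2:181927703-181927713, plus strand, 2 mismatches: ggacttcTGTGTATATGTtatactg
UBE2E1, chr3:23932122-23932132, plus strand, 2 mismatches: cttacatTATTTGTCTGTcacagaa
UBE2L6, chr11:57319688-57319698, minus strand, 0 mismatches: tagtttgTGTGTGTGTGTggtggag
USP31, chr16:23079236-23079246, minus strand, 0 mismatches: gactgtgTGTGTGTGTGTgagtgta
USP37, chr2:219319369-219319379, minus strand, 1 mismatch: atatctgTGTATGTGTGTatacaca
The listed bins over the UBE2N element held 72, 40 and 60 IP reads against 3, 5 and 7 input reads, and those over the UBE2E3 element 101, 73 and 170 against 44, 28 and 23. The bins over the UBE2E1 element held 8, 8 and 9 IP reads against 26, 14 and 13 input reads. The perfect element of UBE2L6 had 0, 0 and 11 IP reads against 0, 0 and 5 input reads. That of USP31 had 13, 19 and 13 IP reads against 3, 2 and 1 input reads, and thus more IP than input in all 3 samples. The USP37 element had 0, 0 and 5 IP reads against 0, 0 and 1 input reads. Among these chosen examples, an element by its letters thus went with many, few or no listed reads. These are counts of reads and not IP over input, and all of these genes except UBE2E1 had further elements. In the opposite direction, UBE2C and UBE2M had no element in their 3′ UTRs of 285 and 381 nt and yet had common peaks there. The UBE2M peak lay below input in all 3 samples (-2.39, -2.22 and -2.27). Among genes with a common peak in the 3′ UTR, an element was found in 8 of 10 UBE2 and 4 of 4 USP genes, against 1284 of 1639 of all genes.

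The core TGT occurred in 34 of 80 common bins of UBE2 genes, the 2 of UBE2W left out, (42.5%) and in 38 of 93 of USP genes (40.9%), against 38.2% of 28367 common bins of all genes.

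No member met the rule for a difference between the lines. A value in SK-Mel-103 at least 1 above both UACC-62 replicates was found for 0 of 66 measured members, against 4.2% of measured genes, and at least 1 below both for 0, against 0.857%. By direction alone, SK-Mel-103 was above both UACC-62 replicates in 21 of 31 UBE2 and 18 of 35 USP genes, against 60.1% of all measured genes, and below both in 1 UBE2 gene (UBE2C) and 8 USP genes, against 19.6%. The median difference to the UACC-62 mean was 0.29 in UBE2 and 0.22 in USP genes, against 0.31 in all genes, and thus close to that of all genes. The largest gaps above both replicates were those of USP40 (0.48 against -0.63 and -0.39) and USP48 (-0.42 against -1.35 and -1.38) among the USPs, and of UBE2L3 (-1.03 against -2.17 and -1.83) and UBE2B (-0.47 against -1.25 and -1.21) among the E2s. The largest gaps below were those of UBE2C, USP34 and USP3.

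**Figure D5:**
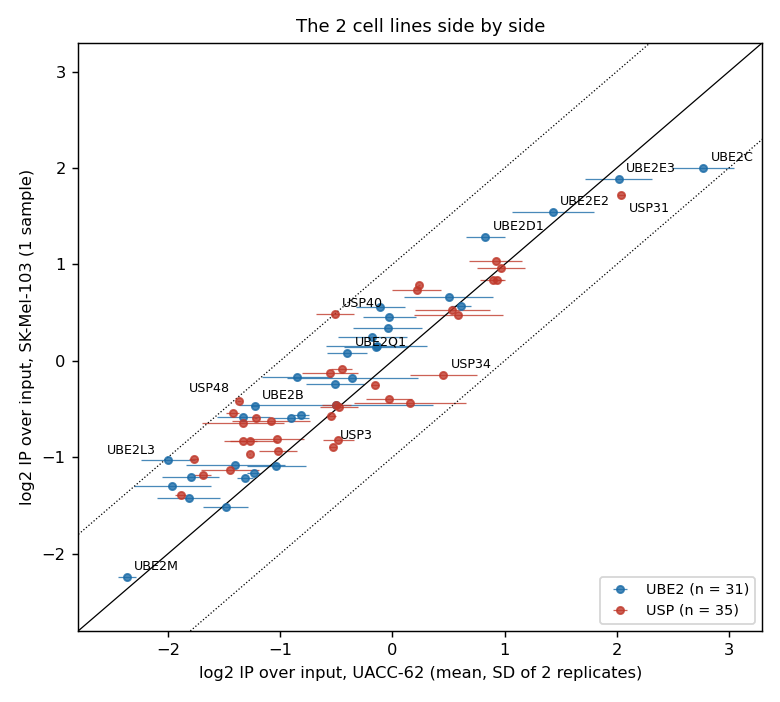
Log2 IP over input in UACC-62 (x axis, mean with SD of 2 replicates) and in SK-Mel-103 (y axis, 1 sample) for the 31 UBE2 (blue) and 35 USP (red) genes with at least 50 reads in each sample. The solid line marks equal values and the dotted lines a difference of 1; the members follow the solid line, with UBE2C, UBE2E3, UBE2E2 and USP31 high and UBE2M low in both lines.

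Peaks were also counted per sample. At least 1 peak was found in 22, 11 and 24 of 35 UBE2 genes and in 10, 6 and 11 of 52 USP genes, against 15%, 12.5% and 17% of all protein-coding genes. UBE2D1 had 18, 0 and 9 peaks, UBE2H 0, 0 and 26, and USP34 16, 58 and 162. UACC-62 replicate 1 was the sample that removed most members from the common set. Without it 18 UBE2 and 7 USP genes had a common peak, against 11.1% of all genes. Without UACC-62 replicate 3 the counts were 10 and 4, against 9.13%.

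The neighbouring steps of the pathway were described from lists of genes in the same way. Over all measured genes, the shares were 23.1% with a common peak, 8.91% above 1 and 17.9% below -1 in all 3 samples. Of 7 E1 enzymes, 6 were measured. Of these, 3 had a common peak (UBA2, UBA1 and SAE1), 4 were below -1 in all 3 samples (UBA1, SAE1, UBA3 and NAE1) and 0 above 1. Of 32 deubiquitinase genes outside the USP family, 22 were measured and 2 had a common peak (OTUD4 and OTUD6B). OTUD4, OTUD1 and ATXN3 were above 1 in all 3 samples, and PSMD14, UCHL3, COPS5 and BRCC3 below -1. OTUD4, an ovarian tumour family deubiquitinase, had 47 common bins and values of 1.73, 1.86 and 2.07, and was thus in the range of UBE2E3 and USP31.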

How the data were processed

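CELF1 RIP-seq of SK-Mel-103 (1 IP and 1 input sample) and UACC-62 (2 of each) was analysed. The inputs were used as a column of the IP lists. The authors mapped reads to GRCh37 with TopHat, set for first-strand libraries, keeping reads with several matches (submitters' processing notes: TopHat2 2.0.4, Bowtie 0.12.7, SAMtools 0.1.16; the methods name other versions), and Piranha 1.2.1 was run per sample. The deposited counts are whole IP reads per 20-nt bin, not normalized, in passing bins only. A p-value per bin was also deposited. The deposited ratio in the last column is the input covariate, from which input reads were read back as whole multiples of the smallest step (all within a relative deviation of 4.65e-06), with 0.01 read as none.

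Bin centres were placed in exons of protein-coding transcripts (GENCODE 44 mapped to GRCh37) on the reverse of the listed strand, with 3′ UTR before coding region before 5′ UTR. With the strand as listed, 96 in place of 1724 genes had a common peak. Named genes were UBE2C and, per family, the 5 highest and 3 lowest by log2 IP over input, the 3 with most common peaks, the 2 with most IP reads per kb and the 2 with the largest gap between lines in each direction; other members are named where a count or a fixed list holds them, and their values are given as examples chosen after they were seen. The members, lists and rules were chosen with earlier results of these data known. Y-linked members were counted without values, and the values of 1 further member are not reported here. Python 3.11.15, numpy 2.4.6 and pandas 2.3.3 were used, and the placement was tested on simulated data. Alternatives comprised read and p thresholds, strand, bins shared by genes, region order, pseudocount, totals, the minimum of reads, mismatches and leaving out each UACC-62 replicate.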

Additional observations from a re-analysis of the deposited data

Results flagged for a closer look

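In 3 members, SK-Mel-103 and both UACC-62 replicates lay on opposite sides of 0 in log2 IP over input. SK-Mel-103 minus the UACC-62 mean was 0.99 in USP40 (0.48 against -0.63 and -0.39, with 113, 87 and 199 IP reads), 0.49 in UBE2Q1 (0.09 against -0.53 and -0.28) and -0.60 in USP34 (-0.14 against 0.24 and 0.67). These differences between the lines were not tested, since SK-Mel-103 has 1 sample. With exon totals, USP40 and UBE2Q1 remained on opposite sides of 0, whereas USP34 was above 0 in all 3 samples (0.04, 0.49 and 0.79).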

How the results depend on the processing

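No paired analysis was possible because the result comes from no test and the inputs that share replicate numbers with the IP samples are a column of the IP lists. Common peaks were found in 10 UBE2 and 4 USP genes, against 8.69% of all genes. Without a read minimum the counts became 30 and 32 (85.7% and 61.5%), against 40% of all genes. They became 2 and 1 above 100 reads (against 2.67%) and 22 and 10 in SK-Mel-103 alone (against 15.05%). On the listed strand they were 0 and 1 (against 0.484%). Leaving out a UACC-62 replicate, chosen after seeing the data, gave 10 to 18 UBE2 and 4 to 7 USP genes, against 9.13% to 11.1% of all genes. The difference between the family medians became -0.73, -1.65 and -0.75 (UACC-62 mean -1.20) over bins with more than 30 IP reads, where only 10 UBE2 and 3 USP genes were measured, and 0.073 in UACC-62 replicate 1 with at least 200 reads, so that its sign no longer differed between samples under either setting. Its UACC-62 mean ran from -0.27 to 0.19 when a replicate was left out. UBE2 genes above 1 in all samples fell from 3 to 2 (UBE2E2 lost) over bins with input reads, against 6.9% of genes. USP genes above 1 numbered 4 with exon totals (against 11.1%) and 4 in 3′ UTR bins (against 12.9%). They numbered 1 to 2 when a UACC-62 replicate was left out, against 9.42% to 10.1% (USP37 was added without replicate 3). The 3′ UTR share of IP reads became 85.5%, 83.0% and 81.5% in UBE2 genes with the coding region placed before it, and 93.4%, 89.9% and 87.9% in UBE2 and 83.9%, 82.2% and 63.5% in USP genes over bins with more than 30 IP reads. GU-rich elements were found in 9 and 11 genes at 1 mismatch, against 21.7% of all genes, and in 2 and 6 at none, against 7.81%. SK-Mel-103 was at least 1 above UACC-62 in 1 USP gene (USP8) in 3′ UTR bins, and in 0 to 1 UBE2 and 0 to 1 USP genes (UBE2L3 and USP40) when a UACC-62 replicate was left out. The other 76 values of the family comparisons, that count of UBE2 genes included, stayed within the replicate spread, or for counts within 1.5 times. Some of these could not move. Leaving out a replicate cannot take the UACC-62 mean past its spread. Exon totals shift all genes of a sample alike, so they cannot change the difference between the family medians. No named gene above 1 or below -1 in all samples changed sign. With exon totals USP34 rose above 0 in SK-Mel-103 (0.04) and UBE2N in the UACC-62 mean (0.01), which was 0.04 without replicate 1. The causes were not tested. For the 13 listed USP genes under 50 reads no ratio is given.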
